A study of Homo sapiens with 8 samples.

Results

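The genes of major histocompatibility complex (MHC) class I antigen presentation examined were HLA-B, HLA-C, HLA-E, HLA-F, B2M, TAP1, TAP2, TAPBP and NLRC5. They were taken as every probe set that the platform annotation assigns to exactly 1 gene symbol equal to 1 of these names, which gave 43 probe sets for 9 genes of 18132 named genes in all. Each of the 9 had at least 1 probe set of its own, and 1 further probe set was shared by HLA-B and HLA-C.

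H1299 is a long-established human cell line of non-small cell lung cancer, grown here in medium with serum, and its RNA was measured on 8 one-colour arrays. In 1 set of arrays, cells transfected with short hairpin RNA (shRNA) against USF1 were compared with the control for USF1 knockdown, with 3 arrays in each group. In the other set, 1 array of cells transfected with shRNA against UGT1A3 was compared with 1 array of its own control. All groups share the 1 cell line; which shRNA the controls received is not stated in the labels, and shRNA sequences are not used here. Nothing in the labels says whether the replicates were separate cultures, and the spread behind each p-value may therefore be technical.

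Class I molecules display short peptides at the cell surface to CD8+ T cells. Peptides cut by the proteasome are carried into the endoplasmic reticulum by the transporter made of TAP1 and TAP2, and tapasin (TAPBP) holds the transporter next to a class I heavy chain paired with beta-2 microglobulin (B2M). HLA-B and HLA-C encode classical heavy chains, HLA-E presents leader peptides of other class I chains to natural killer cell receptors, and NLRC5 is a transactivator of class I genes. Many of these genes respond to interferon through response elements in their promoters. USF1 is a basic helix-loop-helix factor that binds E-boxes, and USF proteins have been reported to act on an E-box in a class I promoter. UGT1A3 conjugates glucuronic acid to lipophilic compounds.

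Values are log2 intensities as deposited, so a difference of 1 is a doubling. A probe set was tested only if its mean over the 6 USF1 arrays lay at or above the 40th percentile of all probe sets, a log2 intensity of 5.63 (4.76 for the UGT1A3 pair); lower probe sets are called dim. USF1 itself read 6.31, 6.55 and 6.42 in its controls and 6.06, 5.88 and 6.13 after knockdown, a difference of -0.40 that left 0.756 of the control level (limma adjusted p = 0.00889). UGT1A3 had only probe sets shared with other UGT1A genes, 9 in number and all dim, so its own level was not checked. The median array value was 6.53 to 6.55 on the USF1 arrays and 5.60 and 5.63 on the UGT1A3 arrays, and no level was compared across the sets. The line was checked against its markers: the keratin KRT18 and vimentin (VIM) had control means of 12.81 and 14.56, whereas the epithelial adhesion molecule EPCAM was dim at 3.44. The keratin KRT8 was the 1 line marker of 5 tested that moved: it rose by 0.25 after USF1 knockdown (adjusted p = 0.00278), with 0.23 to 0.37 over its 8 bright probe sets, and its part in the results was not tested. Leukocytes are rich in class I, and 7 of 8 leukocyte markers analysed were dim, with PTPRC at 3.28 and CD14 at 4.03 in the USF1 controls. Only CD79A was tested, at a difference of 0.14 (adjusted p = 0.441). The summed intensity of the 8 markers was 237 to 266 units in the USF1 controls, 247 to 313 after USF1 knockdown, and 156 and 142 in the UGT1A3 control and knockdown. The part of these markers in the results was not tested.

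After USF1 knockdown the classical heavy chain genes HLA-C and HLA-B rose, by 1.37-fold and 1.18-fold on their brightest probe sets, and the transporter gene TAP2 rose by 1.08-fold. HLA-E, B2M, TAP1 and TAPBP did not pass on their brightest probe sets, with differences between 0.03 and 0.11 on the log2 scale, although HLA-E and B2M each had 2 other probe sets that rose. No probe set of any of these genes passed downward. HLA-F and NLRC5 were dim and were not tested. In RNA of a whole culture, more transcript per cell and more cells with the transcript cannot be told apart.

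In counts, 29 of the 43 probe sets, from 7 genes, were bright enough to be tested, and every array value of these 29 was 6.24 or more, above the limit in both groups. By limma 11 of them rose and none fell (37.9% upward), where 37.3% of the 29576 probe sets tested passed, 19.8% upward and 17.5% downward. At an unadjusted limma p under 0.05, 20 of the 29 were higher and 0 lower. No share of all probe sets was taken at that looser threshold, so this count has nothing to be set against. The difference was above 0 for 27 of the 29, and for 52.3% of all. At the level of genes, 3 of 7 rose through the brightest probe set and none fell, where 38.7% of all 11448 tested genes passed, 20.9% upward and 17.8% downward. For 21 of the 29 probe sets (72.4%) all 3 knockdown arrays lay above all 3 controls, against 27.3% of all probe sets tested, and for none did they lie below, against 24%. The median difference of the 29 was 0.11, and that of all tested probe sets was 0.01. A pair of B2M probe sets held identical values on every array, which leaves 28 distinct sets of values with the same 11 rises. Probe sets of the same gene read the same transcripts on the same arrays and are not independent. B2M gave 8 of the 29 and HLA-E gave 6. The changes were small: below the 1.37-fold of HLA-C, the next was 1.22-fold, on a TAP2 probe set. The count of rises was 7 without USF1 control 3, where 27.9% of all probe sets passed in either direction. It was 20 of 27 when probe sets under the 60th percentile were left out, where 52.3% of all passed.

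**Figure D1:**
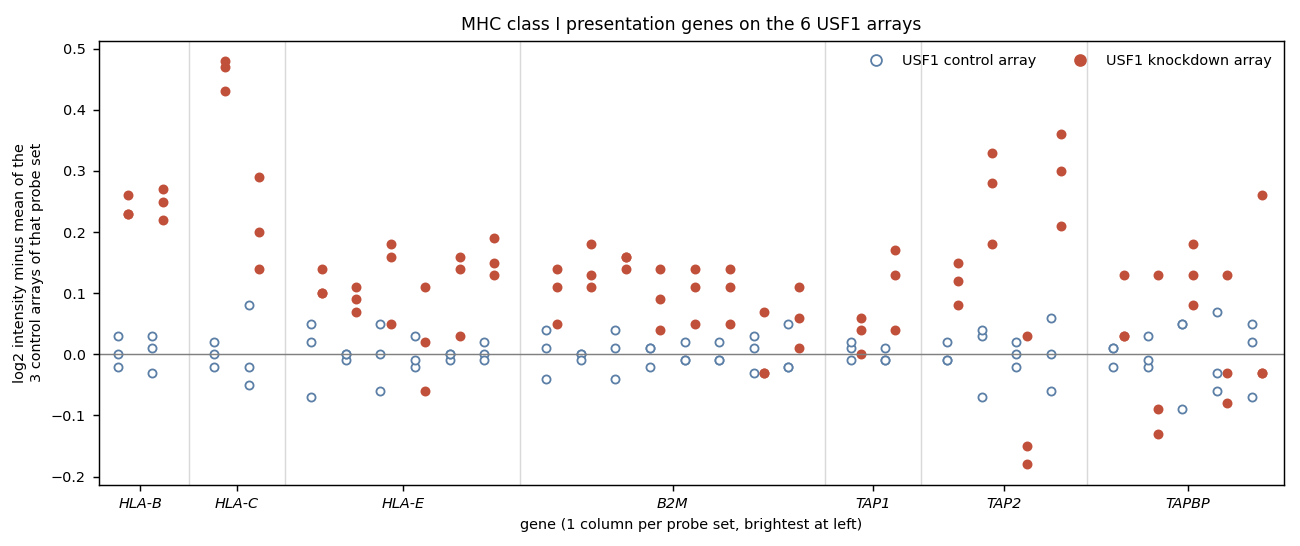
Log2 intensity of each of the 29 tested probe sets on the 6 USF1 arrays, as the distance from the mean of the 3 control arrays of the same probe set (y axis), by gene (x axis, brightest probe set at left). Open circles are control arrays and filled circles knockdown arrays; the knockdown arrays of HLA-B and HLA-C lie above all controls, whereas the groups overlap on 3 of 5 TAPBP probe sets and on 1 of 4 of TAP2.

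HLA-C encodes a classical heavy chain that is also a ligand of killer immunoglobulin-like receptors. Its brightest probe set (11760444_x_at) read 10.46, 10.50 and 10.48 in the controls and 10.95, 10.91 and 10.96 after USF1 knockdown. The groups were far apart compared with the spread within them, with SDs of 0.02 (control) and 0.03 (knockdown). The difference was 0.46 (SE 0.03, 95% confidence interval 0.38 to 0.53, limma adjusted p = 1.61e-04). This change was larger in size than that of 96.5% of all tested probe sets.

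The next HLA-C probe set (11762940_x_at) read 8.16, 8.06 and 8.03 in the controls and 8.28, 8.22 and 8.37 after knockdown. Its groups did not overlap either, and it rose by 0.21 (SE 0.05, adjusted p = 0.0181). The third HLA-C probe set was dim, with a mean of 4.22, and differed by -0.03. With the mean of all 3 probe sets in place of the brightest, the HLA-C change was 0.21 (adjusted p = 0.00696). The probe set shared by HLA-B and HLA-C was dim as well and differed by 0.11, from 4.08 to 4.19.

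HLA-B, the most polymorphic classical heavy chain gene, rose by nearly equal amounts on both of its bright probe sets. The brighter (11755966_x_at) read 10.74, 10.77 and 10.72 in the controls and 10.97, 10.97 and 11.00 after knockdown, a difference of 0.24 (SE 0.03, adjusted p = 0.00172). The other (11755933_x_at) read 10.60, 10.62 and 10.56 against 10.84, 10.81 and 10.86, a difference of 0.25 (SE 0.03, adjusted p = 0.00172). All knockdown arrays stood above all controls on both. The third HLA-B probe set was dim, with a mean of 5.12, and differed by 0.02.

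All bright probe sets of HLA-B and HLA-C carry the suffix _x_at. By the array maker's convention this marks sets in which some probes also match other transcripts, so the signal of 1 class I heavy chain gene can include that of another. Without such probe sets neither gene could be tested. Of the 10 bright HLA-B, HLA-C and HLA-E probe sets, 8 have this suffix and 2 have the suffix _s_at, which marks probes common to several transcripts.

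HLA-E read slightly higher after USF1 knockdown on all 6 of its probe sets, and 2 of the 6 passed. The brightest (11751618_x_at) read 10.06, 10.03 and 9.94 in the controls and 10.15, 10.11 and 10.11 after knockdown. The arrays of the groups did not overlap, but the difference of 0.11 did not pass (SE 0.04, 95% interval 0.02 to 0.21, adjusted p = 0.0692). The second (11723195_x_at) read 9.98, 9.99 and 9.99 against 10.10, 10.08 and 10.06 and rose by 0.09 (SE 0.03, adjusted p = 0.0455). The dimmest of the 6 (11748332_x_at) read 8.15, 8.14 and 8.17 against 8.30, 8.28 and 8.34 and rose by 0.16 (SE 0.03, adjusted p = 0.00795). On the remaining 4 the adjusted p ran from 0.0659 to 0.754. Over the 6 probe sets the differences ran from 0.02 to 0.16, with a median of 0.11.

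HLA-F, a heavy chain of restricted expression, was dim on all 10 of its probe sets, whose values on the USF1 arrays ran from 2.65 to 5.36. Its differences ran from -0.11 to 0.20 without any test. When all probe sets were tested regardless of brightness, the brightest HLA-F probe set differed by 0.11 (adjusted p = 0.466).

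The bases just before the starts of HLA-B and HLA-C are shown because these were the members that rose most on their brightest probe sets, and because class I promoters carry a known array of elements there. Each line gives the 200 bases before the start from RefSeq (build GRCh38.p14), 5′ to 3′ on the strand of the gene, which is the reference and not the sequence of H1299. Capitals mark letters of the motifs searched on both strands. They are the interferon-stimulated response element (GAAA, any 2 bases, GAAA), GAANNGAAA (the same with 1 base fewer, added after the sequences were seen), GGATTCC (core of the enhancer A site bound by NF-kB), TGACG (core of the X2 box), ATTGG (Y box, an inverted CCAAT) and CACGTG (E-box).
HLA-B, chr6:31357180-31357379, minus strand: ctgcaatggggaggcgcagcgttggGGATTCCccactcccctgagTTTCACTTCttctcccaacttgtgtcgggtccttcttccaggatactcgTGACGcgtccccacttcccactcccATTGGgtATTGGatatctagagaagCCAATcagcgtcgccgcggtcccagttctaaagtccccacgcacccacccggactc
HLA-C, chr6:31272093-31272292, minus strand: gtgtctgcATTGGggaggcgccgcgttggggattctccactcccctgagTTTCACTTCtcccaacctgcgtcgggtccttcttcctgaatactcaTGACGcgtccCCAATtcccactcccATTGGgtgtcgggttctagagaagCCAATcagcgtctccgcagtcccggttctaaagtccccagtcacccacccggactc

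Both stretches hold GAANNGAAA on the opposite strand, from -155 to -147 in HLA-B and from -151 to -143 in HLA-C. Downstream of it lie, among other matches, TGACG from -106 in HLA-B and -105 in HLA-C and a Y box on the opposite strand from -56 to -52 in both. GGATTCC was found in HLA-B alone, from -175 to -169. In windows from 250 bases before to 50 after the start, GAANNGAAA occurs in 7.66% of all 35116 RefSeq windows, TGACG in 24.6%, ATTGG in 34.6% and GGATTCC in 3.75%. CACGTG occurs in 7.26% of all windows and in none of the 8 windows given for 7 of the 9 genes. Windows for HLA-E and NLRC5 were not used here. A match describes the letters and is not a measured binding site, and a missing match says only that these letters are not in this window.

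B2M encodes the light chain shared by all class I molecules, and its readings lay close together. Its brightest probe set (11756150_at) read 13.22, 13.14 and 13.19 in the USF1 controls and 13.23, 13.32 and 13.29 after knockdown. The lowest knockdown array stood just above the highest control, and the difference of 0.10 did not pass (SE 0.04, 95% interval 0.01 to 0.19, adjusted p = 0.0877). Below it, 11758193_x_at read 12.85, 12.85 and 12.84 against 12.98, 12.96 and 13.03 and rose by 0.14 (SE 0.03, adjusted p = 0.0137). The third probe set (11758300_x_at) read 12.67, 12.64 and 12.59 against 12.77, 12.79 and 12.79 and rose by 0.15 (SE 0.03, adjusted p = 0.0133). The 8 probe sets differed by 0.00 to 0.15, with a median of 0.10, and the groups did not overlap on 6 of them. Both rises had the suffix _x_at.

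TAP2, a subunit of the peptide transporter, rose on 3 of its 4 probe sets. The brightest (11723058_a_at) read 9.70, 9.67 and 9.67 in the controls and 9.83, 9.80 and 9.76 after knockdown, a rise of 0.11 (SE 0.03, adjusted p = 0.0328). Its groups did not overlap, but the adjusted p was between 0.0674 and 0.0994 without each array in turn except USF1 knockdown 3, where it was 0.0285. It was 0.102 with no limit on dim probe sets. Dimmer probe sets rose more: 11745266_x_at read 8.83, 8.93 and 8.94 against 9.23, 9.18 and 9.08 (0.27, SE 0.05, adjusted p = 0.00717). A further one (11741632_a_at) read 7.69, 7.81 and 7.75 against 8.11, 8.05 and 7.96 (0.29, SE 0.05, adjusted p = 0.00518). The remaining TAP2 probe set (11723059_a_at) went the other way, from 8.26, 8.22 and 8.24 to 8.09, 8.27 and 8.06, and did not pass (-0.10, SE 0.06, adjusted p = 0.23). Without USF1 knockdown 2 that difference was -0.16 and passed downward (adjusted p = 0.0166), so the TAP2 probe sets disagree in direction.

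TAP1, the partner of TAP2, did not pass on either of its probe sets, although 1 was higher at an unadjusted p under 0.05 by limma. The brighter (11757351_a_at) read 8.98, 8.99 and 8.96 in the controls and 9.03, 8.97 and 9.01 after knockdown, and the groups overlapped. The difference was 0.03 (SE 0.03, 95% interval -0.05 to 0.10, adjusted p = 0.534). The other (11730729_a_at) read 8.14, 8.12 and 8.12 against 8.26, 8.30 and 8.17, a difference of 0.11 (95% interval 0.02 to 0.21, adjusted p = 0.0668).

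TAPBP, the tapasin gene, had 5 tested probe sets, of which none passed by limma and 1 was higher at an unadjusted p under 0.05. Its brightest (11757321_a_at) read 10.45, 10.48 and 10.48 in the controls and 10.60, 10.50 and 10.50 after knockdown, a difference of 0.06 (SE 0.04, 95% interval -0.03 to 0.15, adjusted p = 0.237). One knockdown array was above the rest and the others stood next to the controls. The 5 differences ran from -0.03 to 0.13.

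NLRC5, the transactivator, was dim on both probe sets of the USF1 arrays, whose values ran from 3.46 to 5.33. The brighter differed by -0.10, and it had an adjusted p of 0.363 when dim probe sets were tested too. At this brightness no direction was detectable.

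**Figure D2:**
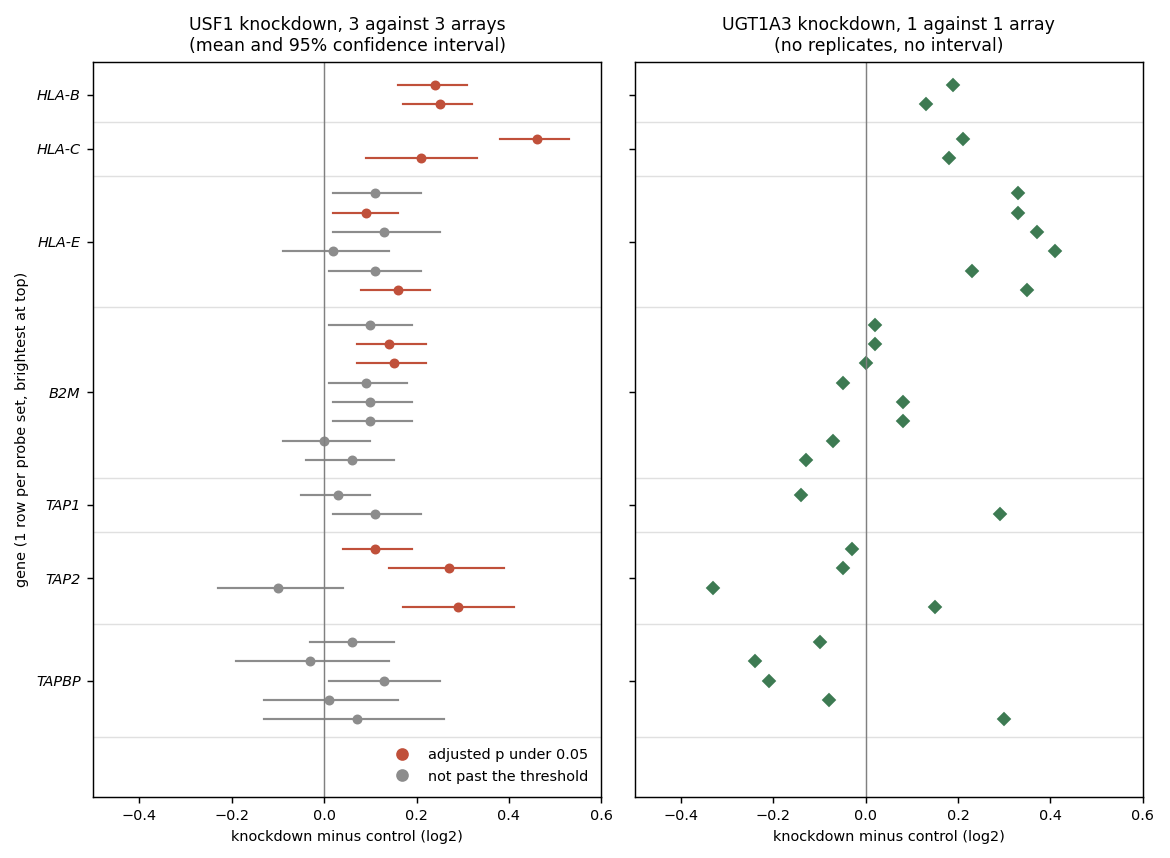
Knockdown minus control on the log2 scale (x axis) for each of the 29 probe sets tested in the USF1 arrays, by gene (y axis, brightest at top), after USF1 knockdown with the mean and 95% confidence interval (left) and in the single UGT1A3 pair (right). All 10 probe sets of HLA-B, HLA-C and HLA-E lie above 0 in both panels, and those of TAP2 and TAPBP lie on both sides of 0 in both.

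The stretches before the starts of the light chain and the peptide-loading genes are given for comparison with those of the heavy chains, with the same motifs in capitals and the same build.
B2M, chr15:44711317-44711516, plus strand: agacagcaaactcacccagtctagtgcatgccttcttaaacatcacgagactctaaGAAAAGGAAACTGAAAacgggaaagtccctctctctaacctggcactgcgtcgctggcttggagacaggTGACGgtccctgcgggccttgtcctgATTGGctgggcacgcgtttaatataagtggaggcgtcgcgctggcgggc
TAP1, chr6:32853705-32853904, minus strand: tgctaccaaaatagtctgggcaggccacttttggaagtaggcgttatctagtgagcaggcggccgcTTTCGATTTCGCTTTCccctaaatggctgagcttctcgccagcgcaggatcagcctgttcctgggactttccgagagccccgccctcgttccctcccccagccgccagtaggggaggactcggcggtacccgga
TAP2, chr6:32838740-32838939, minus strand: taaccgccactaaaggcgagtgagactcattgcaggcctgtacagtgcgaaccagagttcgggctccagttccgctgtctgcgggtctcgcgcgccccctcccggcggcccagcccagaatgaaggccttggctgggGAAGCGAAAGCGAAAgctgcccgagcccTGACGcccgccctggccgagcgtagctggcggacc
TAPBP, chr6:33314079-33314278, minus strand: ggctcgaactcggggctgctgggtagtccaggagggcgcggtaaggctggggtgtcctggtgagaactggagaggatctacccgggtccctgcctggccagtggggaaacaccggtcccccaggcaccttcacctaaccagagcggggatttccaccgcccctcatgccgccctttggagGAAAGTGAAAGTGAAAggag

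The interferon-stimulated response element, found in 3.57% of all windows, occurs in those of B2M, TAP1, TAP2, TAPBP and HLA-F. In B2M, TAP1 and TAPBP it occurs in pairs of overlapping matches, from -144 to -129, from -134 to -119 and from -20 to -5. In TAP2 the match runs from -58 to -49 and overlaps one of GAANNGAAA from -63 to -55. No relation between these matches and the changes was tested. RefSeq gives a second start for TAP1, whose window holds no match to the motifs searched.

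**Figure D3:**
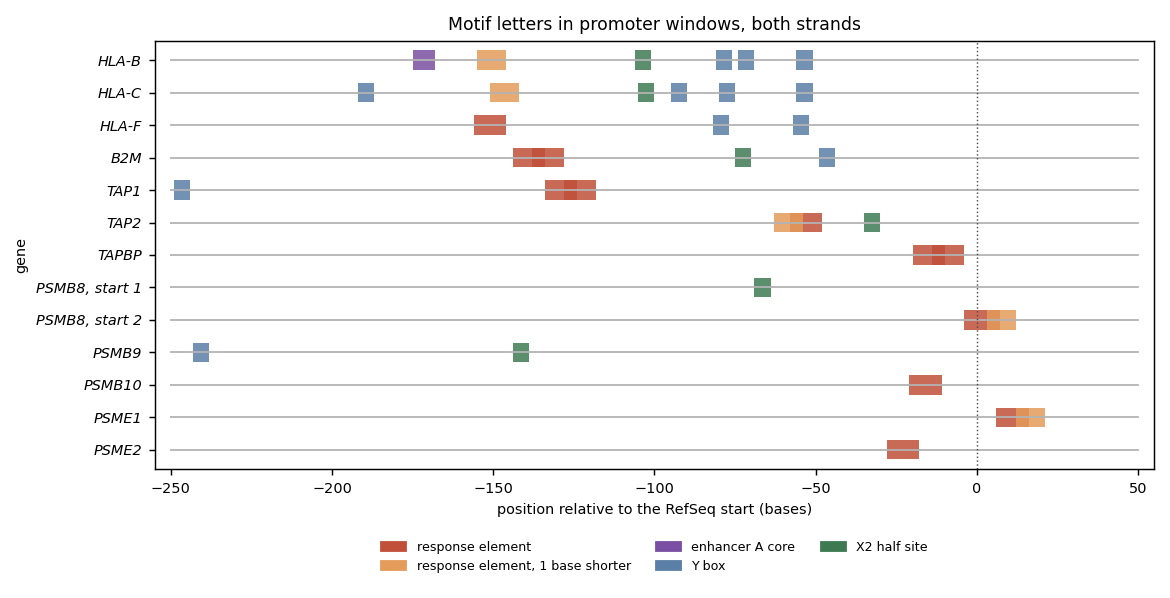
Matches to the motif letters (coloured blocks) by distance in bases from the RefSeq start (x axis) in the windows of 7 presentation genes and of the immunoproteasome and PA28 genes (y axis, with both starts of PSMB8). Matches to the response element lie between -156 and -119 in HLA-F, B2M and TAP1 and closer to the start in TAP2, TAPBP, PSMB10 and PSME2.

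The wider pathway was described through 9 lists of genes. The strongest shift was in the immunoproteasome and its PA28 activator, which shape peptides for class I: 4 of 5 genes rose, none fell and the median difference was 0.36, against 20.9% rising and a median of 0.01 over all genes. PSMB8, a catalytic subunit, rose from 8.58 ± 0.03 to 9.14 ± 0.07 (SD, n = 3 each), by 0.57 (SE 0.04, limma adjusted p = 2.42e-04). PSMB9, another catalytic subunit, rose by 0.41 (SE 0.07, adjusted p = 0.00519), PSME1 by 0.36 and PSME2 by 0.29. PSMB10 differed by 0.01 (adjusted p = 0.866). The matching constitutive subunits changed little: PSMB6 rose by 0.11 (adjusted p = 0.0297), and PSMB5 and PSMB7 differed by 0.08 and 0.04 without passing. The count of rises among these subunits was 0 in place of 1 without any single array other than USF1 knockdown 3, and with no limit on dim probe sets.

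PSMB9 and TAP1 lie head to head, with RefSeq starts 488 bases apart on opposite strands, or 1431 bases for the second TAP1 start. PSMB9 went from 7.44 ± 0.05 to 7.86 ± 0.15 (95% interval of the difference 0.24 to 0.59), whereas the interval for the brighter TAP1 probe set was -0.05 to 0.10. For the other TAP1 probe set the interval was 0.02 to 0.21 (limma adjusted p = 0.0668), and the groups did not overlap. The difference between these 2 genes was not tested.

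Among 11 genes of peptide loading and trimming 5 rose and 2 fell, with a median of 0.11, where 20.9% of all tested genes rose and 17.8% fell. The falls numbered 1 without USF1 control 1, control 2, knockdown 1 or knockdown 3, each left out alone, and with no limit on dim probe sets. The chaperone partner PDIA3 rose by 0.28 (adjusted p = 0.00199) and the trimming peptidases ERAP2 and ERAP1 by 0.27 and 0.25. The largest fall was in THOP1, a cytosolic oligopeptidase that degrades peptides, from 9.18 ± 0.04 to 7.49 ± 0.07 on its single bright probe set (-1.69, SE 0.05, adjusted p = 1.22e-05). The lectin chaperones CALR and CANX differed by 0.09 and 0.06 on their brightest probe sets and did not pass there. The differences ran from 0.05 to 0.09 over 2 bright probe sets of CALR and from -0.01 to 0.29 over 9 of CANX.

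Of 13 factors that act on class I promoters 4 rose and 2 fell, with a median of 0.02. The shares over all tested genes, for this list and the next, were 20.9% rising and 17.8% falling. With each array left out in turn, 3 to 4 rose and 2 to 3 fell. IRF9, the DNA-binding part of an interferon-activated complex, rose by 0.52 (SE 0.05, adjusted p = 3.57e-04). The 3 RFX subunits, which bind the X box together, did not move alike: RFX5 rose by 0.25 (adjusted p = 0.00147), RFXAP fell by 0.71 (SE 0.09, adjusted p = 0.00162) and RFXANK differed by -0.04. The NF-kB precursor NFKB1 fell by 0.18, and IRF1, an activator of class I genes, differed by 0.07 (adjusted p = 0.316). Over the 3 bright IRF1 probe sets the differences ran from -0.13 to 0.25, so its direction depends on the probe set. Among 7 tested interferon receptor and JAK kinase genes 1 rose and 2 fell: the receptor chain IFNAR1 fell by 0.64 (adjusted p = 1.56e-04), IFNGR2 fell by 0.18 and JAK1 rose by 0.15. The JAK1 call was lost without USF1 control 1, control 2 or knockdown 1, each left out alone, and with no limit on dim probe sets.

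Of 7 tested other class I and class I-like genes 3 rose and none fell, with a median of 0.16, against 20.9% rising and 17.8% falling over all genes. The stress-induced NKG2D ligands MICA and MICB rose by 0.32 and 0.29 (adjusted p = 0.00197 and 0.00102), and PROCR by 0.22. By limma HLA-G differed by 0.02 on its brightest probe set (adjusted p = 0.921) and by -0.16 on its other bright one (adjusted p = 0.222). None of the 3 tested class II genes passed, with HLA-DPA1 at -0.06 and HLA-DQB1 at 0.05, and 8 of the 11 class II genes were dim. At an unadjusted p under 0.05 the class II count by limma was also 0.

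Of 10 reported negative regulators of class I 1 rose and 3 fell, with a median of -0.03. Over all tested genes 20.9% rose and 17.8% fell. The falls numbered 2 to 3 with each array left out in turn. The ubiquitin ligase MARCHF9 rose by 0.29 and its relative MARCHF4 fell by 0.25, TMEM127 fell by 0.20 and the Polycomb subunit EED by 0.18. Among 4 tested checkpoint and natural killer ligands CD276 and NECTIN2 rose by 0.34 and 0.33, while CD47 and PVR differed by 0.00 and 0.01 on their brightest probe sets. Over their bright probe sets CD47 ran from -0.17 to 0.00 and PVR from -0.12 to 0.09.

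**Figure D4:**
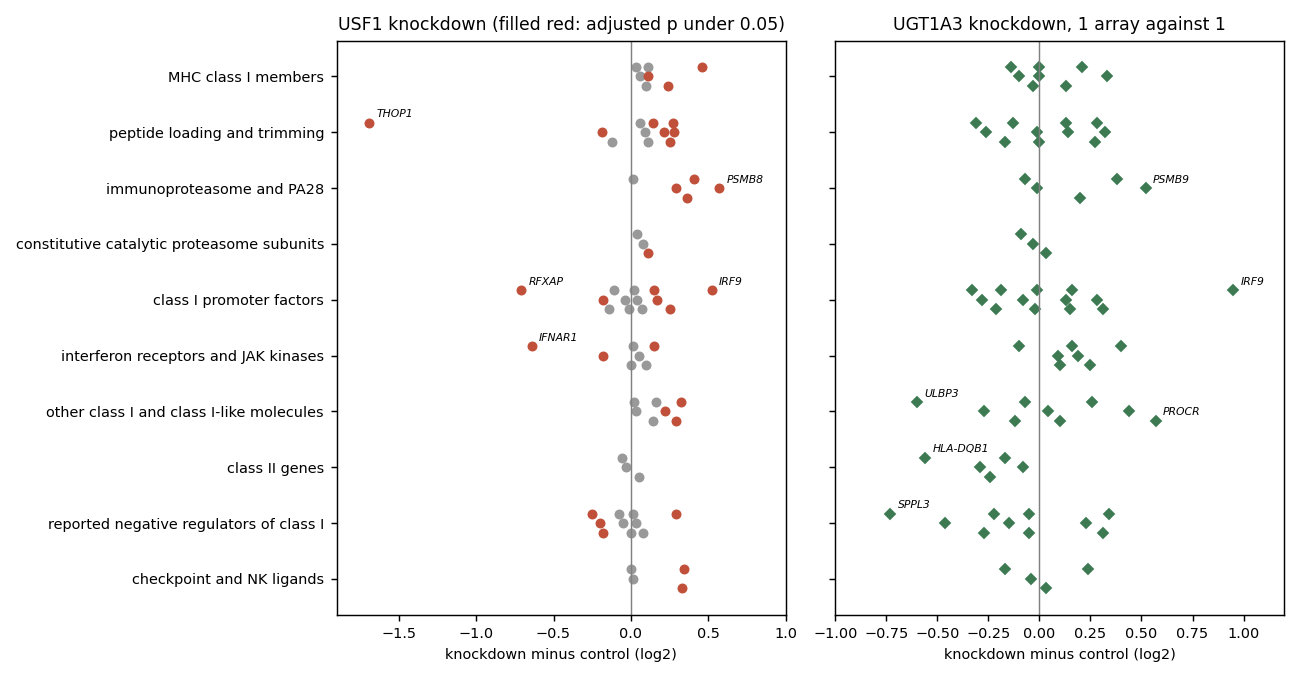
Knockdown minus control on the log2 scale (x axis) for each tested gene of the class I members and the 9 pathway lists (y axis), through its brightest probe set, after USF1 knockdown (left, circles, filled red where the adjusted p was under 0.05) and in the single UGT1A3 pair (right, diamonds). Genes at least 0.5 from 0 are named; PSMB8 and IRF9 lie furthest right and THOP1 furthest left after USF1 knockdown.

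By the pattern over the 6 USF1 arrays, the non-member genes most like the mean of the 7 standardised members were ZNF276, ANXA11, ZFYVE1, YWHAB and SPRED1, with Pearson's r of 0.9962 to 0.9984. This is a description over 6 arrays that share the difference between the groups, and 6.09% of the 11441 genes ranked reached 0.95.

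In the UGT1A3 pair, which has 1 array per group and therefore no replicate check, HLA-B, HLA-C and HLA-E were again higher in the knockdown array on their bright probe sets, and the other members went both ways. All 10 bright probe sets of HLA-B, HLA-C and HLA-E were higher, by 0.13 to 0.41 with a median of 0.28. Of the 20 other bright member probe sets 7 were higher, with a range of -0.33 to 0.30 and a median of -0.04. The median over all bright probe sets was 0.01, and 51.5% of them were higher. Differences of 0.2 or more upward occurred in 9 of 30 member probe sets (30%) and in 21.5% of all, or by the brightest probe sets in 2 of 8 genes and 22.5% of all genes. Differences of -0.2 or below occurred in 3 of 30 and in 18.3% of all.

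Of these 3 heavy chain genes, HLA-E gave the largest upward difference in this pair. Its brightest probe set here (11723195_x_at) went from 9.17 to 9.50, higher by 0.33 after knockdown, and its 6 probe sets gave 0.23 to 0.41. After USF1 knockdown the same 6 gave 0.02 to 0.16. HLA-C read 9.79 and 10.00 on its brightest probe set, a difference of 0.21, and HLA-B read 10.33 and 10.45, a difference of 0.13, or 0.19 on its other bright probe set. With all probe sets of a gene averaged, dim ones included, HLA-C differed by 0.06 and HLA-B by 0.11, so the order of these 2 genes depends on the summary. Whether the knockdowns differ was not tested, since 1 pair has no spread. HLA-G, which is no member, was bright on 2 probe sets, which differed by -0.08 and -0.12.

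B2M read 12.65 and 12.65 on its brightest probe set of this pair, a difference of 0.00, with 4 of 8 probe sets higher and a range of -0.13 to 0.08. TAP1 gave -0.14 and 0.29 on its 2 probe sets, so its direction depends on the probe set. TAP2 ran from -0.33 to 0.15 over 4 probe sets and TAPBP from -0.24 to 0.30 over 5, with 1 of each higher. NLRC5 was above the limit of this pair on 1 probe set, which read 5.33 on both arrays. HLA-F was dim on all 10 probe sets, and its differences ran from -0.49 to 0.32.

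Of the wider pathway, PSMB9 went from 7.19 to 7.71 (0.52) and PSMB8 differed by 0.38. Among the 5 immunoproteasome and PA28 genes 3 were higher, and PSME2, which rose after USF1 knockdown, differed by -0.07. IRF9 gave 0.95, from 7.26 to 8.21, with 0.59 to 0.95 over its bright probe sets. NPEPPS, a cytosolic aminopeptidase, differed by 0.32 and THOP1 by -0.31. NFYA, a subunit of the factor that binds CCAAT boxes, differed by -0.33. IFNGR2 differed by 0.40 and JAK2 by 0.25. PROCR differed by 0.57 and ULBP3, a ligand of NKG2D, by -0.60. All 5 bright class II genes were lower on their brightest probe sets, with HLA-DQB1 at -0.56 and CD74, the invariant chain, at -0.29. HLA-DQB1 read 5.26 and 4.70 and CD74 5.40 and 5.11, close to the limit of 4.76 for this pair. The brightest of the 5, HLA-DPB1, read 6.44 and 6.21, with differences of -0.24 to 0.00 over its bright probe sets. Of all bright probe sets in the pair 51.5% were higher. Among the negative regulators the protease SPPL3 differed by -0.73 and the Polycomb subunit EZH2 by -0.46. Over their bright probe sets SPPL3 ran from -0.73 to -0.10 and EZH2 from -0.46 to -0.27. NECTIN2 differed by 0.24 and CD276 by -0.17, with -0.10 to 0.24 and -0.48 to -0.17 over their bright probe sets.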

How the data were processed

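Total RNA of H1299 cells was hybridised to 8 Affymetrix PrimeView arrays. The deposited values are log2 intensities of 49293 probe sets (and 102 control rows, left out); MAS5 is named in the submitters' processing notes, without its role or version, and whether the authors normalized further is not stated in the sources at hand. Depth does not apply to arrays, and the number of arrays limits the precision. Probe sets were named from the platform annotation: 44988 carried 1 symbol, 1832 several and 2473 none, and 44961 of the first matched RefSeq.

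The 3 USF1 knockdown and 3 control arrays were compared in R 4.3.3 with lmFit and eBayes of limma 3.58.1, tested on simulated data, over all 29576 probe sets above the 40th percentile, with two-sided p-values adjusted by Benjamini-Hochberg over all of them and a threshold of 0.05. A gene was represented by its brightest named probe set. The UGT1A3 pair has 1 array per group and gives differences only.

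The genes and lists were chosen with earlier results of these data known. All members were named; in each list up to 4 genes past the threshold with the largest change (2 where none passed), in the UGT1A3 pair up to 2 per list with the largest difference, and the 5 genes most like the members. Other list genes named as not passing, and PSME2 in the UGT1A3 pair, were chosen after their values were seen. Alternatives were another normalization, centring, dim limit, added intensity, summary per gene, variance prior, replicate block and each array left out. 2 further alternatives, leaving out _x_at probe sets and counting called probe sets of the members, were chosen after seeing the data. Some genes of the lists are not reported here.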

Additional observations from a re-analysis of the deposited data

How the results depend on the processing

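HLA-B and HLA-C passed under all 15 alternatives that could be run for them, with differences of 0.17 to 0.25 and 0.21 to 0.47. TAP2 passed in 9 of 16, HLA-E and B2M in 3 of 16 each, and TAP1 and TAPBP in none of 16. No alternative turned the direction of a called member gene after USF1 knockdown. For the list genes only the counts per list were followed. In the UGT1A3 pair, which has no test, TAP1 went from -0.14 to 0.07 with probe sets averaged, and HLA-C from 0.21 to 0.06. With no limit on dim probe sets 16.3% of probe sets passed in place of 37.3%, and 7 member probe sets rose. With the limit at the 60th percentile 5 member genes and 20 probe sets rose, where 52.3% of all probe sets passed in either direction. With an intensity trend and robust prior 5 genes and 18 probe sets rose, where 43.1% of all passed. Averaging the probe sets of each gene gave 5 genes, where 44.2% of all genes passed. The added genes were HLA-E and B2M in each case. Without _x_at probe sets, an alternative chosen after seeing the data, 1 gene (TAP2) and 2 of 15 probe sets rose, and HLA-B and HLA-C could not be tested. The cause of these shifts was not tested, beyond the change in the number of probe sets that a limit or omission brings.

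Leaving out each array in turn gave 27.7% to 34.6% of probe sets called, 2 to 3 member genes higher and 0 lower, 7 to 13 member probe sets higher, and 25 to 28 list genes called in place of 30. The median member difference in the UGT1A3 pair was 0.00, and it was -0.03 after centring on array medians and 0.06 with probe sets averaged. The replicate numbers were not shown to pair the samples: deviations of same-numbered arrays correlated at -0.09, 0.17 and 0.08. With the replicate number as a block, 10 member probe sets rose, HLA-C kept 0.46 (adjusted p = 0.00176) and TAP2 had an adjusted p of 0.0608. Signal over background limits HLA-F and NLRC5, which lay under the dim limit.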
